A study of Rattus norvegicus with 26 samples.

Results

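Noncollagen genes of the fibrotic scar were followed in rat spinal cord after compression injury, with and without grafted hUC-MSCs, mesenchymal stem cells of the human umbilical cord. The 10 genes, Fn1, Postn, Lum, Dcn, Tnc, Sparc, Lox, Fbn1, Acta2 and Thbs1, were chosen by name among the 32883 genes of the count table, by a rule that uses no measured value but with earlier results of these libraries known. All 10 were among the 17990 genes that passed the filter on low counts. The animals were adult female Sprague-Dawley rats, labelled as postnatal day 70, with a body weight of about 250 g. Injured rats had the cord compressed at T10 by an aneurysm clip of 60 g for 1 min. The 26 libraries comprised 4 from intact or sham rats, labelled untreated (Intact), and 22 from injured rats. The latter were 3 libraries before treatment (sub-SCI), then 3 +PBS against 3 +MSC libraries at the first time point, 2 against 3 at the second and 4 against 4 at the last. The sub-SCI samples were taken 7 days after injury, when the other injured rats received hUC-MSCs (+MSC) or PBS vehicle (+PBS) intrathecally, and 1w, 2w and 4w mark the weeks after transplantation (1, 2 and 4 wpt). According to the study's methods, rats received cyclosporin A daily against rejection of the human cells throughout the experiment. Each library was made from poly(A) RNA of a 5 mm segment that was centered at the lesion. The segment holds every cell type of the lesion, so fewer cells of a type and less RNA per cell cannot be told apart. The study's methods call the repeats biological replicates, and neither they nor the labels say how many rats gave each library.

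After injury, fibroblasts of the meninges and of blood vessel walls enter the lesion and deposit extracellular matrix, which forms the fibrotic scar. Fibronectin (Fn1) is the adhesive matrix on which cells and collagen assemble. Tenascin C (Tnc), periostin (Postn), thrombospondin 1 (Thbs1) and SPARC (Sparc) are matricellular proteins, which change how cells bind to the matrix rather than build its fibers. Lumican (Lum) and decorin (Dcn) are small leucine-rich proteoglycans that bind collagen fibrils and set their diameter. Lysyl oxidase (Lox) crosslinks collagen and elastin, and fibrillin 1 (Fbn1) forms the microfibrils that carry elastin and store latent TGF-β. Acta2 encodes smooth muscle α-actin, the actin of vessel wall cells and of contractile myofibroblasts.

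Total counts ranged from 19496602 to 43468509 per library. Levels are given as CPM, counts relative to the library's total after scaling by the TMM factors of edgeR, with 1 value per library in the order of the replicate numbers. The 10 genes together held 0.116 to 0.221% of all counts in Intact and 0.590 to 1.38% in sub-SCI. In the +PBS groups this share was 0.466 to 0.803% at 1 wpt, 0.305 to 0.342% at 2 wpt and 0.238 to 0.560% at 4 wpt. In the +MSC groups it was 0.303 to 0.460%, 0.219 to 0.249% and 0.300 to 0.391%. Some libraries stood apart for the whole set. Intact replicate 1 lay below its group mean for all 10 genes, by 1.65 on average on the log2 scale (mean deviation, -1.65), and +PBS-4w replicate 1 did so for all but Acta2 (mean deviation, -1.24). In contrast, sub-SCI replicate 3 and +PBS-1w replicate 3 lay above their group means for all 10 genes (mean deviations, 0.86 and 0.66). Replicate 1 was the lowest library in 4 to 7 of the 8 groups, depending on the gene.

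**Figure D1:**
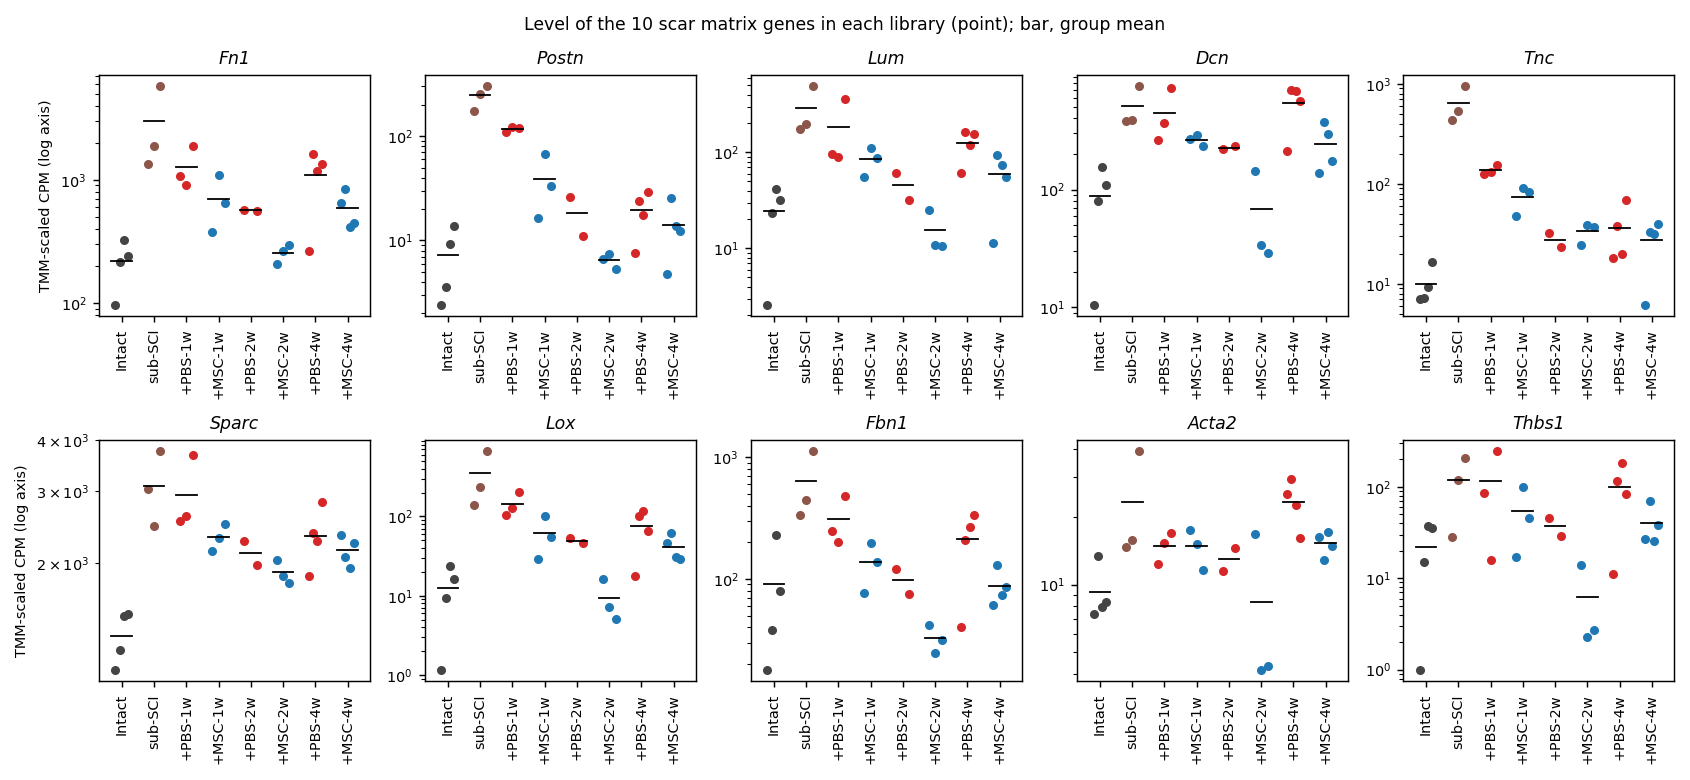
TMM-scaled CPM (log axis) of each of the 10 genes in the 26 libraries, by group; points are libraries and bars are group means. The sub-SCI mean was the highest of the 8 groups for 8 of the 10 genes, and +PBS-4w was highest for Dcn and Acta2.

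Per kilobase of gene length, Sparc was by far the most abundant of the 10 in Intact cord, at a mean of 642 CPM per kb. The next levels were 47.6 CPM per kb for Dcn, 26.1 for Fn1, 12.3 for Lum, 9.19 for Fbn1, 6.66 for Acta2 and 6.05 for Thbs1. Lox (2.64), Postn (2.26) and Tnc (1.38) were the lowest on this scale. In sub-SCI the order became Sparc (1498 CPM per kb), Fn1 (359), Dcn (273), Lum (144) and Tnc (89.4), and Acta2 was the lowest at 16.7. Tnc and Postn thus moved from the bottom of the set to the middle, and Acta2 moved to the bottom.

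The comparison of sub-SCI with Intact shows the genes at 7 days after injury. All 10 genes rose at an adjusted p under 0.05, against 30.5% of all genes tested, and 9 of 10 were higher differentially expressed genes (DEGs, absolute log2 fold change above 1 and adjusted p under 0.01), against 16.6% of all genes. The median log2 fold change of the 10 was 3.18 (1.22 to 6.0), and that of all genes was -0.02. Adjusted p-values are from edgeR's quasi-likelihood test with the Benjamini-Hochberg method over the 17990 genes. Each log2 fold change is given ± a standard error (SE). The test returns no SE, so it was derived as the absolute log2 fold change over the square root of the test's F statistic. In 9 of the 10 genes the sub-SCI libraries did not overlap with Intact, against 32.9% of all genes in this direction.

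Among the matricellular genes, Tnc (ENSRNOG00000058645) was at 7.04, 7.14, 9.39 and 16.4 CPM in Intact and at 435, 535 and 963 CPM in sub-SCI. Its log2 fold change of 6.0 ± 0.56 (adjusted p = 1.09e-08) was the largest of the 10, and every sub-SCI library was far above every Intact library. Postn (ENSRNOG00000012660) was at 2.40, 3.62, 9.30 and 13.8 CPM in Intact and at 175, 256 and 306 CPM in sub-SCI, a log2 fold change of 5.06 ± 0.61 (adjusted p = 4.13e-07). Its groups were likewise far apart. Fn1 (ENSRNOG00000014288) was at 96, 213, 326 and 242 CPM in Intact and at 1354, 1865 and 5828 CPM in sub-SCI, a log2 fold change of 3.78 ± 0.56 (adjusted p = 5.25e-06). Replicate 3 of sub-SCI was the highest library of the series. Sparc (ENSRNOG00000012840), which was already abundant, was at 1091, 1228, 1481 and 1500.4 CPM in Intact and at 3039, 2468 and 3763 CPM in sub-SCI. Its change was the smallest of the 10, 1.22 ± 0.16 (adjusted p = 1.57e-06), but its groups did not overlap. Thbs1 (ENSRNOG00000045829) was at 0.982, 15, 37.3 and 35.2 CPM in Intact and at 28, 119 and 208 CPM in sub-SCI, a log2 fold change of 2.42 ± 0.97 (adjusted p = 0.0364). It was the 1 gene whose sub-SCI libraries overlapped with Intact, and the 1 gene that was not a DEG.

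Both proteoglycan genes rose together. Lum (ENSRNOG00000004610) was at 2.56, 23.1, 41.5 and 31.6 CPM in Intact and at 176, 198 and 497 CPM in sub-SCI, a log2 fold change of 3.55 ± 0.73 (adjusted p = 0.000228). Dcn (ENSRNOG00000004554) was at 10.5, 79.4, 155 and 109.8 CPM in Intact and at 377, 385 and 761 CPM in sub-SCI, a log2 fold change of 2.52 ± 0.64 (adjusted p = 0.00174). In both genes Intact replicate 1 was far below the other Intact libraries and sub-SCI replicate 3 far above the other sub-SCI libraries. Lox (ENSRNOG00000014426) was at 1.15, 9.34, 23.9 and 16.4 CPM in Intact and at 139, 234 and 673 CPM in sub-SCI, a log2 fold change of 4.77 ± 0.75 (adjusted p = 1.17e-05). Fbn1 (ENSRNOG00000007302) was at 17.7, 37.8, 228 and 79.8 CPM in Intact and at 332, 444 and 1127 CPM in sub-SCI, a log2 fold change of 2.80 ± 0.68 (adjusted p = 0.00118). The Intact libraries of Fbn1 spread widely, with replicate 3 the highest, and none reached the lowest sub-SCI library. Acta2 (ENSRNOG00000058039) was at 7.42, 13.4, 7.95 and 8.32 CPM in Intact and at 14.6, 15.8 and 39.4 CPM in sub-SCI, a log2 fold change of 1.33 ± 0.39 (adjusted p = 0.00546). Replicate 3 of sub-SCI held most of this difference, and without it the log2 fold change of Acta2 was 0.71 (adjusted p = 0.125). Without any single library, 6 to 9 of the 10 genes were DEGs.

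Markers of cell types moved in the same comparison. Of all genes, 30.5% were higher and 30.9% lower at an adjusted p under 0.05. All 10 microglia and macrophage markers rose (median log2 fold change, 3.56), from 248 to 393 CPM in sum in Intact to 2643 to 2993 CPM in sub-SCI. All 10 neuron markers fell (median, -3.11), from 9177 to 11250.3 CPM in sum to 414 to 1869.5 CPM, and all 7 oligodendrocyte markers fell (median, -1.10). At the same adjusted p under 0.05, 7 of 12 pericyte and perivascular fibroblast markers, 2 of 6 endothelial markers and 2 of 7 Schwann cell markers were higher, and 5 of 8 astrocyte markers, 1 endothelial marker and 4 of 8 skeletal muscle, cartilage and bone markers were lower. The part of these cell types in the rise of the 10 genes was not tested.

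Promoter sequences were taken from RefSeq (GRCr8), where 7 of the 10 genes had an entry, namely Postn, Lum, Tnc, Sparc, Fbn1, Acta2 and Thbs1. The 250 bases before the annotated start of 4 of them are shown, of Postn and Tnc for their large early rise, of Lum as a proteoglycan gene, and of Acta2 as the gene least like the others. They read 5′ to 3′ on the strand of the gene, and capitals mark the motifs that were searched on both strands, which are spelled out after the sequences.
Postn, chr2:140677811-140678060, plus strand: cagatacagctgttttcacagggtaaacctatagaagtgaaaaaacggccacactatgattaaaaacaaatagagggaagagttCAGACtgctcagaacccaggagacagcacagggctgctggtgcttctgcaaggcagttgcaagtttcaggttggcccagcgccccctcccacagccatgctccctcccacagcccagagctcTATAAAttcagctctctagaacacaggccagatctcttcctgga
Tnc, chr5:82476132-82476381, minus strand: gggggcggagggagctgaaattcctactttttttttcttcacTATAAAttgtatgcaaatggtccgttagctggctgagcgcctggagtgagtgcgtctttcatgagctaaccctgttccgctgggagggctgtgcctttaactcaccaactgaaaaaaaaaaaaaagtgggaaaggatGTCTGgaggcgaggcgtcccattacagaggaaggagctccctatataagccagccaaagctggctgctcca
Lum, chr7:34245456-34245705, plus strand: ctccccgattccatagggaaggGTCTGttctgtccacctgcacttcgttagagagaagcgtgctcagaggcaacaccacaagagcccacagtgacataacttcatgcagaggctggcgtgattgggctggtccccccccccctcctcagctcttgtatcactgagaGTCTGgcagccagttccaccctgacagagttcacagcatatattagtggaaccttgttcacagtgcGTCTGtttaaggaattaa
Acta2, chr1:241172504-241172753, minus strand: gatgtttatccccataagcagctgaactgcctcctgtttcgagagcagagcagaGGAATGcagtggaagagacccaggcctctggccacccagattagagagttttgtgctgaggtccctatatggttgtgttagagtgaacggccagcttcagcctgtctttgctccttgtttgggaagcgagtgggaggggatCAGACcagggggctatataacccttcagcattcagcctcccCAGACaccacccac
TATAAA, the core of the TATA box, was in 2 of the 7 promoters (Postn, bases 44 to 39 before the start, and Tnc, bases 208 to 203), against 12.9% of 33465 promoters of the same length. CATTCC, the letters that TEAD factors bind, was in 3 of 7 (Sparc, Acta2 and Thbs1), against 12.1%. CAGAC, a SMAD-type motif, was in 6 of 7, all but Thbs1, against 42.9%. TGANTCA, the AP-1 motif, and the CArG box in its strict form, the motif of serum response factor, were in 0 of 7, against 6.34% and 1.5% of all promoters. Looser forms of the CArG box, which allow a C or G among its middle bases, were not searched. The Acta2 window holds such stretches, ccctatatgg and ccttgtttgg, which are left in lower case. Looser forms of the TATA box were not searched either. The stretch tatataa is left in lower case near the end of the Tnc and Acta2 windows. These matches are letters in a window and not sites.

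**Figure D2:**
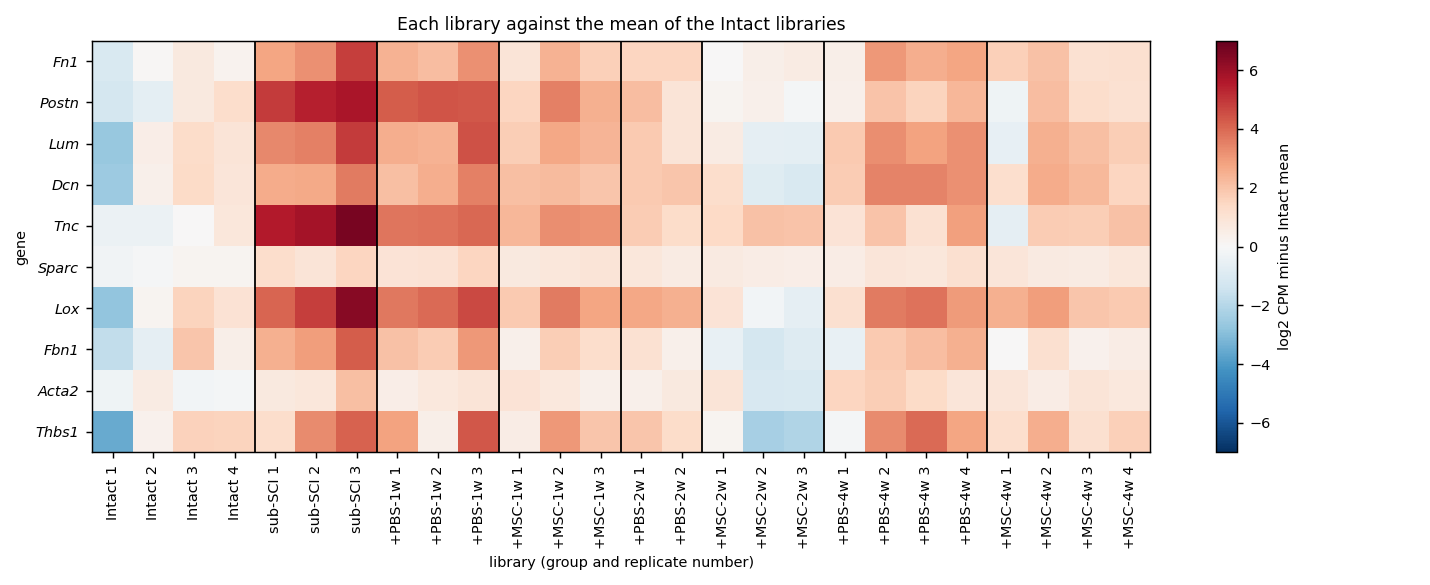
log2 CPM of each gene in each library minus the mean of the 4 Intact libraries; rows are genes, columns are libraries by group and replicate number, red is above and blue below the Intact mean. Tnc, Postn and Lox are darkest in sub-SCI and +PBS-1w, Dcn and Lox are red in all 4 +PBS-4w libraries and palest in replicate 1, and +MSC-2w holds the most blue cells of the injured groups.

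The +PBS groups show the course without cells, and these comparisons share the Intact and sub-SCI libraries. At 1 wpt 7 of the 10 genes were higher DEGs than in Intact (13.5% of all genes were), at 2 wpt 0 of 10 (8.84%) and at 4 wpt 6 of 10 (13.3%). At an adjusted p under 0.05 the counts were 9, 3 and 8 of 10, against 26.7%, 19.7% and 28.6% of all genes in this direction. The 0 at 2 wpt rests on 2 +PBS libraries. At an unadjusted p under 0.05, 5 of 10 genes were higher there (24% of all genes). DESeq2 called 0 DEGs there on all libraries and 2 on the groups compared. The shares of all genes in these DESeq2 fits and in the other refits of this paragraph are not given here. The median log2 fold change of the 10 against Intact was 2.47, 1.11 and 2.00 at 1, 2 and 4 wpt. Without +PBS-1w replicate 3 the DEGs at 1 wpt were 4, Fn1, Postn, Tnc and Lox. The DEGs at 4 wpt were 4 to 7 without any single library, and 2 (Fn1 and Acta2) when edgeR was fitted to the groups compared alone.

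Postn and Tnc fell most from sub-SCI. Postn was at 111, 124 and 119 CPM at 1 wpt, at 26 and 11 CPM at 2 wpt and at 7.56, 23.7, 17.4 and 29.4 CPM at 4 wpt. Against sub-SCI its log2 fold change was -1.06 ± 0.58 (adjusted p = 0.343) at 1 wpt, -3.73 ± 0.77 (adjusted p = 0.00247) at 2 wpt and -3.66 ± 0.58 (adjusted p = 0.000114) at 4 wpt. Tnc was at 125, 130.3 and 153 CPM at 1 wpt, at 31.9 and 23.2 CPM at 2 wpt and at 18.2, 37.5, 20.1 and 69.1 CPM at 4 wpt. Its log2 fold change from sub-SCI was -2.24 ± 0.53 (adjusted p = 0.0277), -4.55 ± 0.71 (adjusted p = 0.00036) and -4.15 ± 0.52 (adjusted p = 1.07e-05). In both genes every +PBS library lay below every sub-SCI library at all 3 weeks, as in 13.4%, 26.5% and 13.8% of all genes at 1, 2 and 4 wpt. Of the 10 genes, 2, 9 and 5 did so at these weeks. At an adjusted p under 0.05, 1, 6 and 4 of 10 were lower (1.51%, 8.52% and 11.6% of all genes). Postn and Tnc were the 2 lower DEGs of the set at 2 wpt (2.1% of all genes were lower DEGs) and at 4 wpt (3.09%). At 1 wpt 0 genes were DEGs (0.106%), and 2 of 10 had an unadjusted p under 0.05 (9.03%). DESeq2 called 1 at 1 wpt on all libraries and 2 on the groups compared, and its shares of all genes are not given here. The call at 2 wpt rests on both +PBS-2w libraries: without replicate 1 only Tnc was a DEG, and without replicate 2 none was. Without +MSC-4w replicate 1, which is in the model for the spread only, Tnc was a DEG at 1 wpt.

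Dcn and Acta2 had their highest group mean at 4 wpt. Dcn was at 261, 363 and 720.2 CPM at 1 wpt, at 219 and 232 CPM at 2 wpt and at 211, 695, 678 and 567 CPM at 4 wpt. At 4 wpt this was a log2 fold change of 2.60 ± 0.61 (adjusted p = 0.0013) over Intact and of 0.08 ± 0.63 (adjusted p = 0.94) over sub-SCI. Acta2 was at 12.4, 15.3 and 17 CPM at 1 wpt, at 11.5 and 14.6 CPM at 2 wpt and at 25.4, 29.5, 22.5 and 16.1 CPM at 4 wpt. The 4 wpt libraries all lay above Intact (log2 fold change, 1.33 ± 0.37 (adjusted p = 0.00445)), and the fold change over sub-SCI was 0.01 ± 0.39 (adjusted p = 0.992). For the other genes of the set the +PBS means were below the sub-SCI mean at all 3 weeks. Fn1 was at 1066, 902 and 1868 CPM at 1 wpt, at 568 and 561 CPM at 2 wpt and at 264, 1613, 1188 and 1337 CPM at 4 wpt, where replicate 1 lay within the Intact range and the others did not. Lum was at 96.4, 89.4 and 363 CPM at 1 wpt, at 60.4 and 32 CPM at 2 wpt and at 60.7, 162, 120.1 and 156 CPM at 4 wpt. Lox was at 105, 126 and 205 CPM at 1 wpt, at 53.3 and 46 CPM at 2 wpt and at 17.6, 101, 116 and 64.7 CPM at 4 wpt. Lum, Lox and Fn1 were DEGs against Intact at 1 and 4 wpt. Fbn1, a DEG in sub-SCI, was at 40.5, 208, 266 and 332 CPM at 4 wpt, and its log2 fold change over Intact was 1.22 ± 0.62 (adjusted p = 0.106). Thbs1 at 4 wpt was at 11.1, 117, 184 and 82.9 CPM (log2 fold change, 2.15 ± 0.93 (adjusted p = 0.0562)), and its lowest library was below 3 of the 4 Intact libraries. Sparc kept a narrow range, at 1854, 2371, 2266 and 2827 CPM at 4 wpt, all above Intact (log2 fold change, 0.81 ± 0.15 (adjusted p = 0.000153)). Its change was below the size a DEG needs.

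The central comparison was +MSC with +PBS at the same week. By edgeR 0 of the 10 genes were lower DEGs at any single week (0.0111%, 0% and 0% of all genes at 1, 2 and 4 wpt), and 0 passed an adjusted p of 0.05 (0.0611%, 0% and 0.928%). At an unadjusted p under 0.05, 1, 4 and 0 of 10 were lower (7.34%, 6.84% and 11.3% of all genes). DESeq2 on all libraries also called 0 DEGs each week, and DESeq2 on the groups compared called 1 at 1 wpt (Postn), 5 at 2 wpt (Fn1, Postn, Lum, Lox and Fbn1) and 0 at 4 wpt. The percentages are those of edgeR, and the shares of all genes that DESeq2 called are not given here. The DESeq2 counts therefore cannot be read as more than the share of all genes. The 10 fold changes lay below 0 at 1 and 4 wpt, and 9 of them at 2 wpt, against 50.2%, 49.7% and 54.5% of all genes. Their medians were -0.99, -1.54 and -0.87, where those of all genes were -0.0018, 0.0019 and -0.039. The +MSC libraries lay below +PBS without overlap in 5 of 10 genes at 1 wpt, 7 at 2 wpt and 0 at 4 wpt, against 11.6%, 18.4% and 4.47% of all genes.

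Averaged over the 3 weeks in the same model, 6 of the 10 genes were lower in +MSC at an adjusted p under 0.05, against 10.9% of all genes, and 0 were DEGs (0.956%), with 7 at an unadjusted p under 0.05 (18.2%). DESeq2 put 7 of 10 past the same adjusted p, and its share of all genes is not given here. All 10 fold changes lay below 0, against 52.4% of all genes. The median was -1.19 and that of all genes -0.02. The 6 genes were Lox (-1.48 ± 0.42 (adjusted p = 0.0159)), Fbn1 (-1.35 ± 0.41 (adjusted p = 0.0225)), Lum (-1.25 ± 0.43 (adjusted p = 0.0379)), Dcn (-1.21 ± 0.39 (adjusted p = 0.0289)), Postn (-1.18 ± 0.34 (adjusted p = 0.0173)) and Fn1 (-0.97 ± 0.32 (adjusted p = 0.0337)). Thbs1 had the most negative fold change but the widest error, -1.65 ± 0.60 (adjusted p = 0.0524). Acta2 (-0.42 ± 0.24 (adjusted p = 0.223)), Tnc (-0.33 ± 0.30 (adjusted p = 0.458)) and Sparc (-0.21 ± 0.10 (adjusted p = 0.147)) had the smallest changes. No gene had all +MSC libraries below all +PBS libraries at every week (0 of 10, against 0.834% of all genes). Among the libraries other than replicate 1 the count was 7, with Acta2 and Thbs1 and without Postn. The share of all genes in that fit, and in those below with a library left out, is not given here. The count of the 10 genes depended on single libraries. It was 0 without +PBS-2w replicate 1, 2 (Postn and Lox) without +PBS-1w replicate 3, and 3 (Postn, Lox and Fbn1) without +MSC-1w replicate 3 or +MSC-2w replicate 2, and it was 4 to 8 without any other library. Over the 26 such fits Postn and Lox passed in 25, Fbn1 in 24, Dcn in 20, Lum in 17 and Fn1 in 15. The 26 include the fits without an Intact or sub-SCI library, which is in the model for the spread only. All 6 genes passed in each of those, so every failure was in a fit without a +PBS or +MSC library. Lower +MSC levels of a wider list of fibroblast genes were already known from these libraries when the 10 were chosen, so their direction is not independent evidence.

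**Figure D3:**
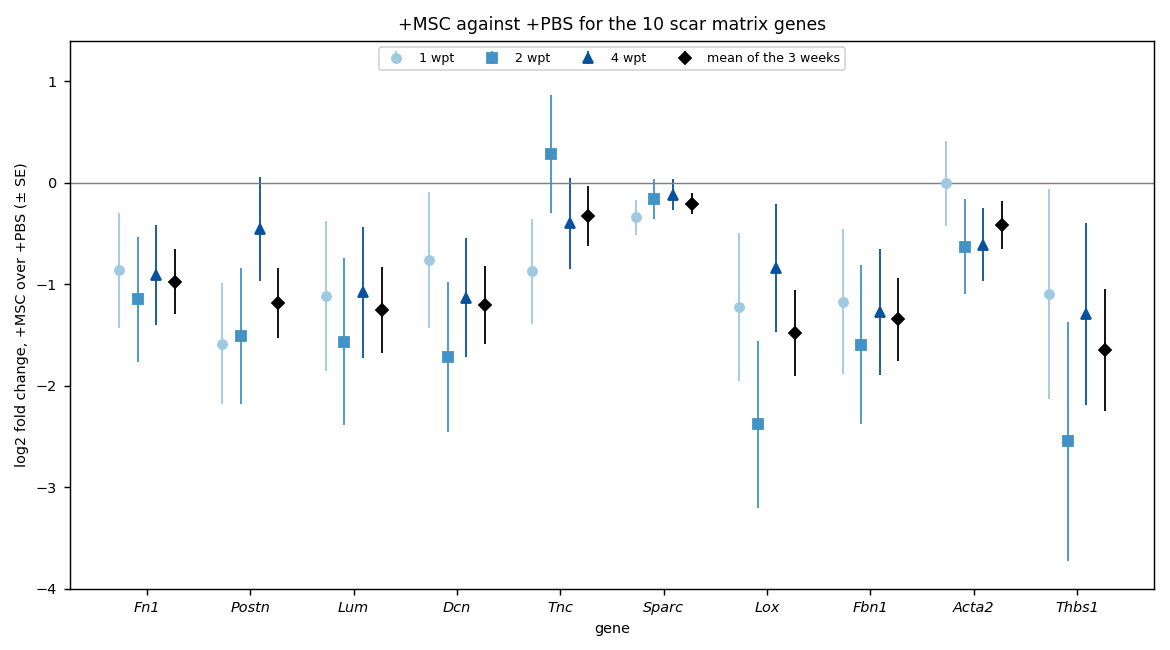
log2 fold change of +MSC over +PBS (± SE) for each gene at 1, 2 and 4 wpt and averaged over the 3 weeks. The averages of Lox, Fbn1, Lum, Dcn, Postn and Fn1 lie between -1.48 and -0.97, and Sparc lies near 0 with a narrow error.

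The libraries behind these averages differed by week. Lox at 1 wpt was at 28.9, 102 and 55.6 CPM in +MSC and 105, 126 and 205 CPM in +PBS, and no +MSC library reached +PBS. At 2 wpt it was at 16.1, 7.22 and 5.14 CPM in +MSC and 53.3 and 46 CPM in +PBS, the widest separation of the 3 weeks. At 4 wpt it was at 45.7, 61.6, 30.9 and 29.2 CPM in +MSC and 17.6, 101, 116 and 64.7 CPM in +PBS, where the lowest library was a +PBS library. Fbn1 was at 76.7, 196 and 137 CPM in +MSC-1w, 41.6, 24.9 and 31.2 CPM in +MSC-2w and 61.1, 129, 73.4 and 85.9 CPM in +MSC-4w. Against 245, 201 and 479 CPM in +PBS-1w and 122 and 75.2 CPM in +PBS-2w its groups did not overlap, but at 4 wpt +PBS replicate 1 was below every +MSC library. Dcn was at 269, 287 and 235 CPM in +MSC-1w, 143, 33.6 and 28.9 CPM in +MSC-2w and 139, 376, 293 and 173 CPM in +MSC-4w. In +MSC-2w replicate 1 was several times higher than replicates 2 and 3, and all of them lay within the Intact range. Lum was at 55.3, 111 and 87 CPM in +MSC-1w, 25.4, 10.8 and 10.5 CPM in +MSC-2w and 11.4, 94.3, 73.6 and 56.1 CPM in +MSC-4w. Fn1 was at 376, 1086 and 646 CPM in +MSC-1w, 207, 262 and 294 CPM in +MSC-2w and 647, 841, 413 and 442 CPM in +MSC-4w. Both +PBS-2w libraries lay above the 3 +MSC-2w libraries for Lum and Fn1 alike, and at 1 and 4 wpt the groups overlapped.

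Postn was at 16.5, 67.8 and 33.2 CPM in +MSC-1w, 6.60, 7.47 and 5.34 CPM in +MSC-2w and 4.77, 25.8, 13.7 and 12.4 CPM in +MSC-4w. Its difference from +PBS was -1.59 ± 0.59 (adjusted p = 0.175) at 1 wpt, where the +PBS libraries were within a narrow range above all +MSC libraries, and -0.45 ± 0.51 (adjusted p = 0.638) at 4 wpt. Tnc was at 48, 91.2 and 83.6 CPM in +MSC-1w, 24.6, 38.8 and 37.5 CPM in +MSC-2w and 6.12, 32.8, 31.2 and 39.7 CPM in +MSC-4w. At 2 wpt it was the 1 gene with a fold change above 0, 0.29 ± 0.58 (adjusted p = 0.901). Thbs1 was at 17.2, 100.1 and 46.1 CPM in +MSC-1w, 13.9, 2.30 and 2.72 CPM in +MSC-2w and 27.2, 69.4, 25.7 and 38.7 CPM in +MSC-4w. In +MSC-2w replicates 2 and 3 were below every other library of the series but Intact replicate 1. Acta2 was at 17.6, 15.2 and 11.6 CPM in +MSC-1w, 16.7, 4.14 and 4.32 CPM in +MSC-2w and 16.3, 12.9, 17.2 and 14.8 CPM in +MSC-4w. As with Dcn and Thbs1, replicates 2 and 3 of +MSC-2w were several times lower than replicate 1. For Thbs1, replicate 1 was itself below every +PBS-2w library. Lum and Lox were also highest in replicate 1 of +MSC-2w. Sparc ranged only from 1789 CPM to 2498 CPM over the 10 +MSC libraries. Whether the effect of hUC-MSCs differed between weeks was tested by an F test of the interaction. By edgeR 0 of the 10 passed (0% of all genes), with unadjusted p-values of 0.286 (Postn) to 0.936 (Fn1), so 0 were under an unadjusted 0.05, and DESeq2 called 0. This does not show that the weeks were alike.

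Against Intact, which shares its 4 libraries with the comparisons above, fewer genes of the set were called in the +MSC groups at 1 and 4 wpt than in the +PBS groups, a difference that was not itself tested. At 1 wpt 2 of 10 were higher DEGs (Postn and Tnc), against 7.87% of all genes, and 5 of 10 were higher at an adjusted p under 0.05 (18.3%). At 2 wpt 0 were DEGs (5.6%), 2 of 10 (Tnc and Sparc) were higher at an adjusted p under 0.05 (12.7%), and 2 were higher at an unadjusted p under 0.05 (18%). At 4 wpt 0 were DEGs (7.25%), 4 of 10 (Fn1, Tnc, Sparc and Lox) were higher at an adjusted p under 0.05 (17.7%), and 5 at an unadjusted p under 0.05 (22.4%). DESeq2 on all libraries called 4, 1 and 1 DEGs at 1, 2 and 4 wpt, and its shares of all genes are not given here. In +MSC-2w 3 of the 10 fold changes were above 0 (47% of all genes), and the median was -0.28. Tnc in +MSC-2w was 1.74 ± 0.49 (adjusted p = 0.0151) over Intact, with no overlap. At 1 wpt the count was 1 without Intact replicate 2 or +MSC-1w replicate 2, and 4 without +PBS-4w replicate 1. It was 1 at 2 wpt without Intact replicate 4, +MSC-4w replicate 1, or +PBS-4w replicate 1 or 4, and 1 at 4 wpt without +MSC-4w replicate 1, and in each of these Tnc was the gene.

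Ordered by mean level, the 8 groups ran from sub-SCI at the top to Intact (Fn1, Tnc and Sparc) or +MSC-2w (the other 7 genes) at the bottom, apart from Dcn and Acta2 with +PBS-4w at the top. Most neighbours in these orders overlapped. Postn and Tnc had 2 neighbouring pairs of groups without overlap, sub-SCI above +PBS-1w and +PBS-1w above +MSC-1w. Fn1, Dcn, Sparc, Lox and Fbn1 had 1 such pair each, and Lum, Acta2 and Thbs1 had 0.

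The genes varied together across libraries. Over the 26 libraries, which share their groups, the Pearson r of log2 CPM between 2 of the 10 genes was 0.81 at the median of 45 pairs (0.33 to 0.95), and after the group means were removed it was 0.64 (-0.17 to 0.91), above 0 in 43 pairs. Acta2 was the least alike, with a median r of 0.60 to the others and 0.20 within groups, and Tnc came next with 0.74 and 0.37 within groups. The genes of the table with the most similar pattern to each member (Pearson r over 26 libraries) differed among members. For Lum they were Loxl1, Pcolce and Col3a1 (r, 0.98 for each), which encode a crosslinking enzyme, an enhancer of procollagen processing and a fibrillar collagen. For Dcn they were Islr, Foxc2 and Foxd1 (0.97 each), and for Fbn1 Col5a1, Col8a1 and Fstl1 (0.96 each). For Fn1 they were Lima1, Ltbp2 and Synpo (0.96 each), and for Lox Ltbp2, Msln and Lbp (0.97, 0.97 and 0.96). Thbs1 came with Upk1b and Col8a1 (0.94 each), and Sparc with Mmp14, Ppic and Pxn (0.93 each). Postn came with Col4a1 and Cthrc1 (0.95 each), and Tnc with Ckap2 and Hjurp (0.96 and 0.95), which act in mitosis. Acta2 came with the smooth muscle genes Myl9 and Cnn1 and with Btg3 (0.92, 0.88 and 0.87).

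Other genes of the same matrix were counted by lists, in the average of the 3 weeks of +MSC against +PBS, where 10.9% of all genes were lower and 12.3% higher at an adjusted p under 0.05. These counts and those of the cell type markers below were not recomputed with a library left out. In the same average the count of the 10 genes went from 6 to 0 without +PBS-2w replicate 1. Of the microfibril and elastic fiber genes 8 of 11 tested were lower (median log2 fold change, -1.03), led by Efemp2 (-0.75 ± 0.13, adjusted p = 0.00091), Emilin1 (-1.07 ± 0.19, adjusted p = 0.00103) and Ltbp2 (-1.61 ± 0.36, adjusted p = 0.00405). Of the collagen crosslinking and modifying enzymes 10 of 13 were lower (median, -0.63), led by Bmp1 (-0.50 ± 0.10, adjusted p = 0.00154), Plod1 (-0.44 ± 0.09, adjusted p = 0.00176) and Loxl3 (-0.69 ± 0.17, adjusted p = 0.00644). Of the scar collagens 8 of 9 were lower (median, -1.14), led by Col4a1 (-0.92 ± 0.16, adjusted p = 0.000747). Of the other small leucine-rich proteoglycans 2 of 5 were lower (median, -0.82). Of the other matricellular genes 4 of 13 were lower (median, -0.54), namely Igfbp7, Ccn5, Tgfbi and Ccn2, and 1 was higher, Sparcl1 (0.45 ± 0.11, adjusted p = 0.00759). Of the contractile genes 1 of 9 was lower, Myl9 (-0.58 ± 0.17, adjusted p = 0.0187), with a median of -0.49. Of the receptors of these proteins 2 of 9 were lower, the fibronectin receptor subunits Itga5 (-0.84 ± 0.19, adjusted p = 0.00423) and Itgb1 (-0.32 ± 0.09, adjusted p = 0.0142).

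**Figure D4:**
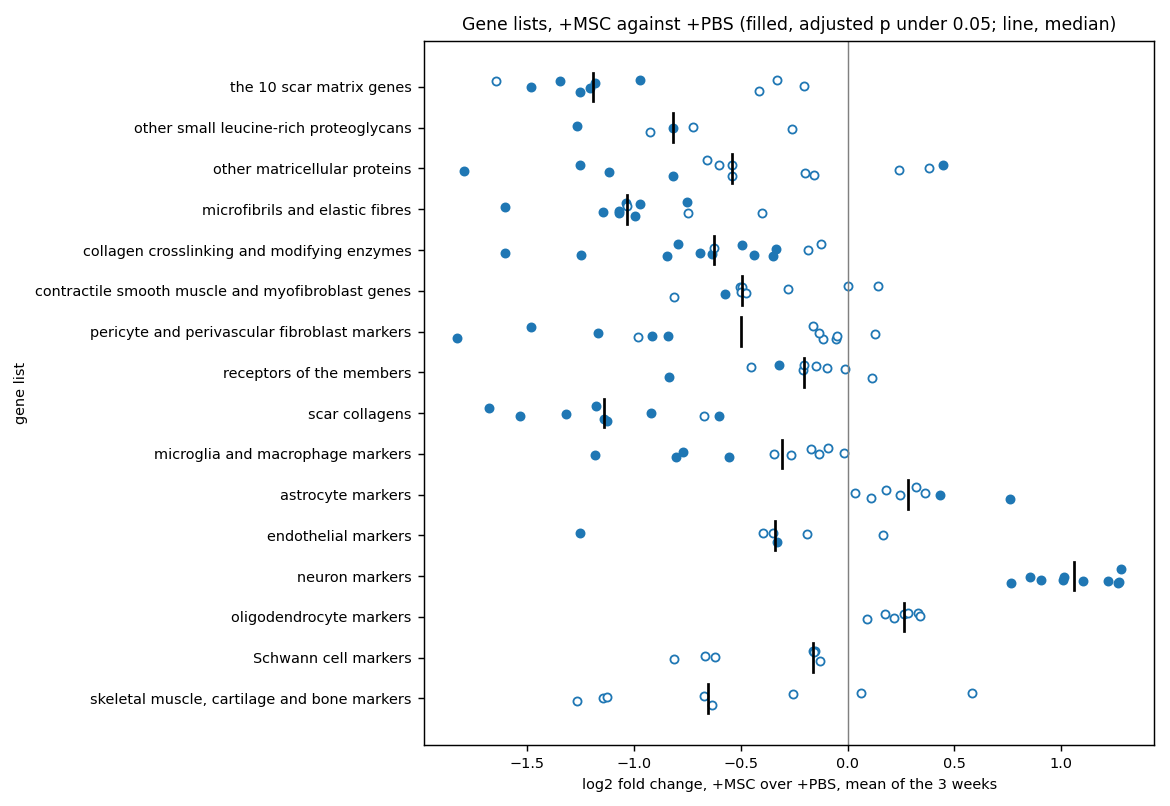
log2 fold change of +MSC over +PBS, averaged over the 3 weeks, for each gene of each list; filled points have an adjusted p under 0.05 (edgeR) and lines are list medians. Scar collagens (8 of 9) and microfibril genes (8 of 11) are mostly filled on the left, and the neuron markers (10 of 10) lie on the right.

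Markers of cell types moved in the same average. Of the pericyte and perivascular fibroblast markers 5 of 12 were lower (Pdgfrb, Pdgfra, Anpep, Cd248 and Fap). The others, Dpt, Pdpn, Cspg4, Rgs5, Kcnj8, Notch3 and Abcc9, did not pass. The summed level of all 12 genes of this list was 348 to 472 CPM in Intact, 997 to 1361 CPM in sub-SCI, 555 to 1324 CPM over the +PBS groups and 495 to 800.2 CPM over the +MSC groups. All 10 neuron markers were higher in +MSC (median, 1.06), with 1077 to 5409.9 CPM in sum over the +PBS groups, 3438 to 8252 CPM over the +MSC groups and 9177 to 11250.3 CPM in Intact. Of the microglia and macrophage markers 4 of 10 were lower (Cd14, Mrc1, Cd68 and Tyrobp), with 1309 to 3226 CPM in sum over +PBS and 1123 to 1929.9 CPM over +MSC. Of the astrocyte markers 2 of 8 were higher and of the endothelial markers 2 of 6 were lower, and Cldn5 of that list was at 0 in every library. Of the oligodendrocyte, Schwann cell and skeletal muscle, cartilage and bone markers 0 of 7, 0 of 7 and 0 of 8 passed by edgeR, and 0, 1 and 1 had an unadjusted p under 0.05. The 7 Schwann cell markers, of which Sox10 is also expressed by oligodendrocytes, ranged widely in sum, 242 to 1451 CPM in Intact, 516 to 3343 CPM over +PBS and 381 to 1988 CPM over +MSC. Muscle, cartilage and bone genes summed to 22.9 to 439.7 CPM in Intact, 25 to 36 CPM in sub-SCI, 25.1 to 248 CPM over +PBS and 25.5 to 58.1 CPM over +MSC. After the values were seen, because Foxc2 and Foxd1 appeared among the most similar genes, 9 genes of leptomeningeal fibroblasts were summed (Foxc1, Foxc2, Foxd1, Tbx18, Slc6a13, Slc47a1, Crabp2, Aldh1a2 and Zic1). Their sum was 39.1 to 226 CPM in Intact, 337 to 677 CPM in sub-SCI, 355 to 1120.2 CPM, 419 to 481 CPM and 315 to 1272 CPM in +PBS at 1, 2 and 4 wpt, and 313 to 394 CPM, 56.2 to 171 CPM and 247 to 506 CPM in +MSC. The part of these cell types in the levels of the 10 genes was not tested.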

How the data were processed

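As described by the authors, reads were trimmed (Trim Galore 0.5.0) and mapped by HISAT2 2.1.0 first to GRCh38, to discard human reads, and then to Rnor6. Proper pairs (SAMtools 1.9) were counted by featureCounts 1.6.4. The deposited files hold those counts for each gene, and no normalization had been applied. Annotation release and strand setting are not given in the sources used here, so overlapping genes are uncertain. Removal of human reads can also take rat reads of conserved genes, which was not tested. The tests used edgeR 4.0.16 in R 4.3.3 (filterByExpr, TMM, glmQLFit and glmQLFTest, 8 groups in 1 model, no covariates) and limma 3.58.1, with Benjamini-Hochberg adjustment over 17990 genes. The alternative tool was DESeq2 1.42.0. log2 CPM used a prior count of 2. Total counts were 19496602 to 43468509 per library. Groups came from the labels, which give 3 +MSC-2w and 2 +PBS-2w libraries, whereas the study's methods give 2 repeats for +MSC-2w. The study's results speak of 3 +MSC-2w samples, as the labels do. They also report 1 +PBS-2w sample as an outlier that clustered with +MSC-2w, which the study proposes may reflect better spontaneous recovery. Its text does not say which replicate this was. Replicate numbers were not taken as pairs. The genes named were the 10 members, up to 3 genes per list with the smallest p in the average of the weeks (all that passed, where a list's count is spelled out), and the 3 most similar genes per member, of which some are not reported here. The members and the lists were chosen with earlier results of these data known, and the leptomeningeal list after the values were seen. The edgeR tests of +MSC against +PBS and of the difference between weeks were first checked on simulated counts. The latter was checked only where no difference existed. The comparisons with Intact and sub-SCI and the DESeq2 fits were not checked in this way.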

Additional observations from a re-analysis of the deposited data

Results flagged for a closer look

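One value stood apart from its group among the 33 sets of 4 libraries that were checked by Dixon's test (each of the 10 genes and their share of all counts, in Intact, +PBS-4w and +MSC-4w). Acta2 in Intact replicate 2 was at 13.4 CPM, while the other 3 Intact libraries were at 7.42 to 8.32 CPM, a gap of 0.849 of the whole range. Chance flags about 1 in 20 such sets. The test of whether the effect of hUC-MSCs differed between weeks passed for 0 of the 10 genes by edgeR, with 0 at an unadjusted p under 0.05, and for 0 by DESeq2.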

How the results depend on the processing

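The groups of 2 to 4 libraries, the spread between replicates and the libraries named above limit these values. Depth limits the lowest of them, such as Intact replicate 1 with 18 counts of Thbs1, 21 of Lox, 44 of Postn and 47 of Lum. The DEG counts kept within 1.5 times under median-of-ratios factors and both filters on low counts. The cause of the following moves was not tested, and the shares of all genes called under these settings are not given here. DESeq2 on all libraries gave 1 (+PBS-1w vs sub-SCI), 5 (+PBS-2w vs sub-SCI), 4, 1 and 1 (+MSC-1w, +MSC-2w and +MSC-4w vs Intact). DESeq2 on the groups compared gave 2 (+PBS-2w vs Intact), 2 and 7 (+PBS-1w and +PBS-2w vs sub-SCI), 1 and 5 (+MSC vs +PBS at 1 and 2 wpt) and 1 and 1 (+MSC-2w and +MSC-4w vs Intact). edgeR on the groups compared gave 2 (+PBS-4w vs Intact), 0 (+PBS-2w vs sub-SCI) and 1, 1 and 1 (+MSC-1w, +MSC-2w and +MSC-4w vs Intact). A term for replicate 1 gave 2 (+PBS-2w vs Intact) and 4, 1 and 1 (+MSC-1w, +MSC-2w and +MSC-4w vs Intact). The libraries other than replicate 1 gave 4 (+PBS-2w vs sub-SCI) and 4, 2 and 2 (+MSC-1w, +MSC-2w and +MSC-4w vs Intact), and there Dcn was a lower DEG in +MSC-2w and a higher DEG in +MSC-4w, whereas the other genes called against Intact under any alternative were higher.

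Deviations from the group means correlated at a median r of 0.06 (-0.17 to 0.45, over 0.1 in 31 of 80) between libraries of the same number, -0.03 (over 0.1 in 32 of 214) between other libraries and 0.17 (over 0.1 in 18 of 28) between libraries that were both replicate 1. Pairs over 0.1 were thus more frequent among libraries of the same number, and most frequent among those of replicate 1. The numbers were to be taken as pairs only if every pair was over 0.1, so they were not. That rule is too strict to show that libraries of the same number were unrelated. With the replicate number as a block the counts were 1 (+PBS-2w vs Intact), 1 (+PBS-1w vs sub-SCI) and 1 and 2 (+MSC-2w and +MSC-4w vs Intact), and in the average of the weeks the block kept 6 genes. The average of the weeks gave 6 or 7 genes under all 9 alternatives that left no single library out, and 0 to 8 with a library left out. With a library left out the DEGs were 6 to 9 in sub-SCI vs Intact, 4 to 8, 0 to 0 and 4 to 7 in +PBS-1w, +PBS-2w and +PBS-4w vs Intact, 0 to 1, 0 to 3 and 2 to 3 in these groups vs sub-SCI, 0 to 0 in +MSC vs +PBS at each week and in the difference between weeks, and 1 to 4, 0 to 1 and 0 to 1 in +MSC-1w, +MSC-2w and +MSC-4w vs Intact.

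The sign of some log2 fold changes reversed, in 18 values of these settings, none of which was that of a DEG. Acta2 in +PBS-4w vs sub-SCI was -0.027 under DESeq2 on all libraries, -0.015 under edgeR on the groups compared, -0.026 under median-of-ratios size factors, -0.024 under no filter and -0.31 under libraries other than replicate 1. Thbs1 in +PBS-1w vs sub-SCI was 0.00091 under DESeq2 on the groups compared, 0.0055 under at least 10 counts in every library, 0.12 under the replicate block and 0.22 under a term for replicate 1. Postn in +MSC-2w vs Intact was 0.22 under the replicate block and 0.031 under a term for replicate 1. Dcn in +MSC-2w vs Intact was 0.034 under the replicate block and 0.0020 under a term for replicate 1. Fbn1 in +MSC-4w vs Intact was 0.34 under the replicate block and 0.082 under a term for replicate 1. Dcn in +PBS-4w vs sub-SCI was -0.0086 under a term for replicate 1. Lox in +MSC-2w vs Intact was 0.0014 under a term for replicate 1. Fbn1 in +PBS-2w vs Intact was -0.60 under libraries other than replicate 1. With a library left out, 42 values reversed, in these ranges: Fbn1 in +PBS-2w vs Intact -0.25 to 1.12, Dcn in +PBS-1w vs sub-SCI -0.70 to 0.23, Sparc in +PBS-1w vs sub-SCI -0.27 to 0.092, Thbs1 in +PBS-1w vs sub-SCI -1.22 to 0.66, Dcn in +PBS-4w vs sub-SCI -0.092 to 0.50, Acta2 in +PBS-4w vs sub-SCI -0.24 to 0.62, Thbs1 in +PBS-4w vs sub-SCI -0.75 to 0.42, Acta2 in +MSC-1w vs +PBS-1w -0.15 to 0.14, Thbs1 in +MSC-1w vs +PBS-1w -1.88 to 0.10, Tnc in +MSC-4w vs +PBS-4w -0.64 to 0.12, Postn in +MSC-2w vs Intact -0.43 to 0.34, Dcn in +MSC-2w vs Intact -1.51 to 0.040, Lox in +MSC-2w vs Intact -1.04 to 0.068, Acta2 in +MSC-2w vs Intact -1.13 to 0.19, Fbn1 in +MSC-4w vs Intact -0.37 to 0.95.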
